A study of Mus musculus with 2 samples.

Results

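The genes described here are 9 genes of the interferon response that were chosen by name from the 19059 genes in the deposited single-cell matrices, and all 9 were measured in both libraries. They are 4 transcription factors (Stat2, Irf1, Irf7 and Irf8) and 5 genes that interferon induces (Isg15, Ifit1, Ifit3, Gbp2 and Ifitm3). The livers came from mice aged 27 weeks that had eaten a high-fat, high-sugar diet (HF/HSD) from 7 weeks of age. One library carries the genotype label AEG-1DMAC, a knockout of AEG-1 (gene Mtdh) in myeloid cells that the study made with a LysM promoter-driven Cre, and the other carries the label AEG-1fl/fl, the floxed control without Cre. Each genotype has 1 library, whether a library pools several livers was not stated in the sources used here, and no difference below has a replicate check. RNA was read with a probe kit for fixed cells, so that a level compares 1 gene between cells and never 2 genes with each other.

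Interferons are secreted proteins that cells release on sensing viral or self nucleic acids, or, for interferon gamma, that activated T and NK cells release. Type I interferon acts through a receptor and kinases that bring Stat2 and Irf9 into a complex binding the interferon-stimulated response element (ISRE), whereas interferon gamma acts through the gamma-activated site (GAS). In liver, Kupffer cells, the resident macrophages, and the sinusoidal endothelium are known as sentinels of this pathway, and Irf8 is best known as a factor that dendritic cells and macrophages need to develop.

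The DNA before the start sites of 5 of the genes shows which of these elements each carries. The ISRE core was searched as GAAA, any 2 bases and GAAA on both strands, and the GAS core as TTC, any 3 bases and GAA, which reads the same on both strands, in the 250 bases before each RefSeq start site (GRCm38.p6). An ISRE core lay in 2.98% of the 32851 windows of the mouse genome and a GAS core in 7.02%. The next 3 lines show the targets Isg15, Ifit1 and Ifit3, with the ISRE cores in capitals, because these genes lie in 1 functional group and share the element.
Isg15: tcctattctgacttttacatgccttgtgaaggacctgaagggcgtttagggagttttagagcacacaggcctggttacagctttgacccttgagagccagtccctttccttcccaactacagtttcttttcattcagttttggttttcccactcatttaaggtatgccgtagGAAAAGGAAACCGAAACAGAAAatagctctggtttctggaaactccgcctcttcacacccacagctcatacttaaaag
Ifit1: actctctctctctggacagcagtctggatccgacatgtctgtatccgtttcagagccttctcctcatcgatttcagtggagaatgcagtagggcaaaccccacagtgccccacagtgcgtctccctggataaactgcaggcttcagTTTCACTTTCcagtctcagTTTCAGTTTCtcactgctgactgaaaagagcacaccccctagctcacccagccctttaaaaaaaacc
Ifit3: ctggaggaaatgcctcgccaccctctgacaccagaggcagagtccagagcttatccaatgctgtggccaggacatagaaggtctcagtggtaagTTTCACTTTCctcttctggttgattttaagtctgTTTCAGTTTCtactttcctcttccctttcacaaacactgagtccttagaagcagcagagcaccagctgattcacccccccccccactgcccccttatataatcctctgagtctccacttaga
The Isg15 window (chr4:156200819-156201068, minus strand) held 3 overlapping cores, the Ifit1 window (chr19:34640639-34640870, plus strand) held 2 and the Ifit3 window (chr19:34583279-34583528, plus strand) held 2. The windows of the factors Irf1 and Irf8 are printed for their GAS cores, which are in capitals.
Irf1: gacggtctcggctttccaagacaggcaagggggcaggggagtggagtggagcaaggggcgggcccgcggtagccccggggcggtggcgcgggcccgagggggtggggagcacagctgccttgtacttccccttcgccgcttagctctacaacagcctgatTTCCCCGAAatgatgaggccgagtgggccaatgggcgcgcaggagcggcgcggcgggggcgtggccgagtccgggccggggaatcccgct
Irf8: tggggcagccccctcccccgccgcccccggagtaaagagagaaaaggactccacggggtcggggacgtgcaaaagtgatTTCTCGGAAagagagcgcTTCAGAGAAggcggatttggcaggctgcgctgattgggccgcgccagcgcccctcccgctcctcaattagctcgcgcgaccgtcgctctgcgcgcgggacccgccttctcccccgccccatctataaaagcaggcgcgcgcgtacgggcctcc
Both genes have 2 start sites in RefSeq, of which the first is shown, and the windows of the second held neither element. The Irf1 window (chr11:53769764-53770013, plus strand) held 1 GAS core and the Irf8 window (chr8:120736108-120736357, plus strand) held 2, and neither held an ISRE core. Stat2 and Gbp2 each had 1 ISRE core in their windows, whereas Irf7 and Ifitm3 had neither element. In all, 5 of the 9 genes had an ISRE core and 2 of 9 a GAS core, and among 92 other interferon pathway genes with a window 33.7% had an ISRE core. Counted in the same way by gene, 3.46% of 27025 genes had an ISRE core in any window and 8.13% a GAS core. A match is a string of letters in the window and does not show that a factor binds there.

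The libraries held 2571 cells (labelled AEG-1DMAC) and 3508 cells (labelled AEG-1fl/fl) after filtering, with medians of 12746 and 7682 counts per cell, and 10 barcodes occurred in both. The deleted gene ran against the label. Mtdh (chr15:34082694-34145624) had 109 CPM, or counts per 1000000 counts, in macrophage-like cells of the library labelled AEG-1DMAC and 30.9 CPM in those of the library labelled AEG-1fl/fl, a log2 ratio of 1.82 (95% interval 1.59 to 2.05), whereas Lyz2, whose promoter drives the Cre, differed by 0.14. For this reason the libraries are named by their labels throughout, and a log2 ratio is always the library labelled AEG-1DMAC over the library labelled AEG-1fl/fl. Whether the labels were exchanged was not tested, and with exchanged labels each ratio between genotypes would change sign. Cells were gated into 9 classes from marker scores. The 10 leading genes of each class held none of the 9 genes. They held no marker of another class either, which the gate itself favours, so that this is no check of the gate. Of the class's own markers they held 0 of 20 in hepatocyte-like, 6 of 13 in macrophage-like, 2 of 12 in endothelial-like and 3 of 11 in stellate-like cells. The 4 main classes were hepatocyte-like (1152 and 962 cells), macrophage-like (309 and 716), endothelial-like (279 and 383) and stellate-like cells (190 and 296). The gate is a cut through a range of scores, and 48 and 90 of the macrophage-like cells lay within 0.05 of it. Doublets were not removed, and 23 and 39 macrophage-like cells also reached the gate of a second class. In neutrophils of the library labelled AEG-1DMAC (11 cells) 1 cell held 75.4% of the counts. In the non-hepatocyte classes hepatocyte transcripts were also counted: the 20 hepatocyte markers together reached 60.5% of their hepatocyte level in macrophage-like cells of the library labelled AEG-1DMAC and 38.5% in those of the other library. Intervals below cover counting error only and not the difference between mice. In sums over a class, more cells expressing a gene and more RNA per cell cannot be told apart.

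The 4 transcription factors had different levels over the classes. Irf8 was highest in dendritic cell-like cells and next in macrophage-like cells, Irf7 was highest in macrophage-like cells, Irf1 in T and NK cells and dendritic cell-like cells, and Stat2 in dendritic cell-like cells over a narrow range. The plot of levels by class shows the 9 genes side by side.

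**Figure D1:**
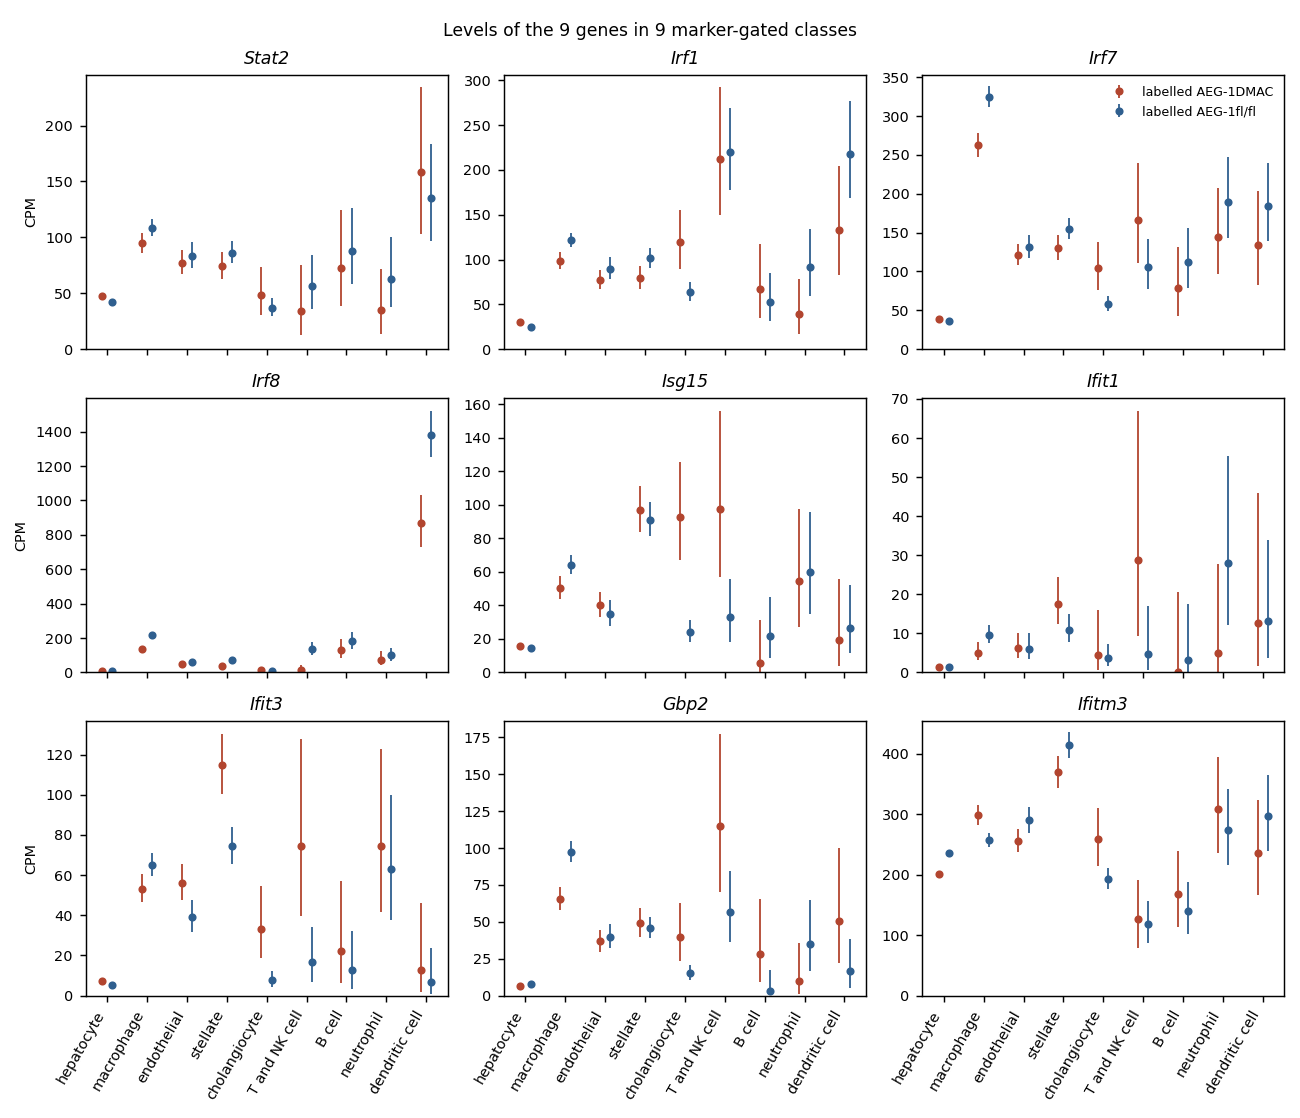
Level of each gene (CPM of the summed counts, linear axis from 0, a separate scale in each panel) in 9 marker-gated classes, in the library labelled AEG-1DMAC (red) and the library labelled AEG-1fl/fl (blue), with Poisson 95% intervals. Irf8 stands at 871 and 1383 CPM in dendritic cell-like cells, against at most 219 CPM in any other class. Ifitm3 is at 118 CPM or more in every class, with hepatocyte RNA included.

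Irf8 (ENSMUSG00000041515, chr8:120736358-120756694) reached 871 CPM (interval 731 to 1029) in dendritic cell-like cells of the library labelled AEG-1DMAC and 1383 CPM (1254 to 1522) in those of the library labelled AEG-1fl/fl. Of these counts 78.1% and 91.4% lay in the 6 and 20 dendritic cell-like cells with 10 or more Irf8 counts. The next class was macrophage-like, at 135 and 219 CPM, so that dendritic cell-like cells stood 6.46-fold and 6.31-fold above it, with no overlap of the intervals. B cells followed at 128 and 181 CPM, overlapping with macrophage-like cells in both libraries. Hepatocyte-like cells were lowest, at 6.61 and 6.0 CPM. Counted by cells, Irf8 was detected in 52.8% and 63.7% of macrophage-like cells and in 59.1% and 76.1% of dendritic cell-like cells. The hepatocyte-like share of 20.4% and 24.3% belonged to far deeper cells, with medians of 27922.5 and 30398.5 counts against 6171 and 5944 in macrophage-like cells. After thinning every cell to 2000 counts, which left out 268 and 474 shallower cells of all classes, Irf8 was seen in 26.8% and 32.3% of macrophage-like cells, 52.6% and 65.9% of dendritic cell-like cells, and 0.868% and 1.14% of hepatocyte-like cells. Hepatocyte-like cells were taken as the class that should lack Irf8. The intervals of cholangiocyte-like cells of both libraries, and of T and NK cells of the library labelled AEG-1DMAC, reached down to their level, and those of the other classes did not.

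Irf7 (ENSMUSG00000025498, chr7:141262706-141266481), the factor that amplifies type I interferon production, was highest in macrophage-like cells, at 263 CPM (248 to 279) and 325 CPM (312 to 338). No interval of another class reached these values in either library. T and NK cells were next in the library labelled AEG-1DMAC (166 CPM) and neutrophils in the library labelled AEG-1fl/fl (190 CPM), and from there down to B cells the intervals of neighbouring classes overlapped in both libraries. Hepatocyte-like cells held 38.3 and 36.3 CPM, which placed macrophage-like cells 6.86-fold and 8.95-fold above them.

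Irf1 (ENSMUSG00000018899, chr11:53770014-53778374), a factor that interferon gamma induces directly, was highest in T and NK cells, at 212 and 220 CPM, and next in dendritic cell-like cells, at 133 and 218 CPM, with overlapping intervals. In the library labelled AEG-1DMAC cholangiocyte-like cells, at 119 CPM, overlapped with them too. Macrophage-like cells had 98.9 and 121 CPM and stellate-like cells 79.3 and 101 CPM. Hepatocyte-like cells were again lowest, at 30.6 and 24.4 CPM. Stat2 (ENSMUSG00000040033, chr10:128270559-128292849), which works with Irf9 in the ISRE-binding complex, spanned a narrower range. It had 159 and 135 CPM in dendritic cell-like cells and 94.7 and 109 CPM in macrophage-like cells, which overlapped, and 47.7 and 42.4 CPM in hepatocyte-like cells. The dendritic cell-like values rest on 25 and 41 counts.

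Irf9 had 61.5 and 63.5 CPM in macrophage-like cells, 114 and 89.1 CPM in dendritic cell-like cells and 30.3 and 24.7 CPM in hepatocyte-like cells. Stat2 and Irf9 were thus both counted in every class, and each was lower in hepatocyte-like than in macrophage-like cells.

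Among the induced genes, Ifit3 and Isg15 were high in stellate-like cells, the vitamin A-storing fibroblasts of the sinusoid. Ifit3 (ENSMUSG00000074896, chr19:34583531-34588731), which with Ifit1 holds back viral RNA, was at 115 CPM (100.4 to 130.3) in stellate-like cells of the library labelled AEG-1DMAC and 74.3 CPM (65.6 to 83.9) in those of the library labelled AEG-1fl/fl. It was at 53.1 and 65.1 CPM in macrophage-like cells, at 56.1 and 39.0 CPM in endothelial-like cells and at 7.26 and 5.47 CPM in hepatocyte-like cells. Stellate-like cells led in both libraries, with intervals that overlapped those of the next class. Ifit3 and its neighbour Ifit3b are near copies, and probes may not tell them apart fully. Isg15 (ENSMUSG00000035692, chr4:156199424-156200818), a ubiquitin-like protein joined to other proteins, had 97.0 and 91.1 CPM in stellate-like cells, 50.6 and 64.3 CPM in macrophage-like cells and 15.6 and 14.8 CPM in hepatocyte-like cells. In the library labelled AEG-1fl/fl stellate-like cells stood clear of macrophage-like cells but overlapped with neutrophils (59.7 CPM, from 17 counts), whereas in the library labelled AEG-1DMAC the T and NK cells (97.6 CPM, from 17 counts) and cholangiocyte-like cells (92.8 CPM, from 42 counts) were level with them. Ifit1 (ENSMUSG00000034459, chr19:34640871-34650009) was the sparsest of the genes. Stellate-like cells held 36 and 38 counts (17.6 and 10.8 CPM), macrophage-like cells 22 and 71 counts (5.08 and 9.57 CPM), and B cells of the library labelled AEG-1DMAC none, which allows up to 3 counts.

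Gbp2 (ENSMUSG00000028270, chr3:142620602-142638008), a GTPase of the guanylate-binding family that interferon gamma strongly induces, was at 65.4 CPM (58.0 to 73.5) and 97.3 CPM (90.3 to 104.7) in macrophage-like cells. T and NK cells had 115 and 56.7 CPM from 20 and 24 counts, and hepatocyte-like cells 6.21 and 7.54 CPM. Ifitm3 (ENSMUSG00000025492, chr7:141009586-141010770), a membrane protein that blocks virus entry, differed from the other induced genes in being abundant also in hepatocyte-like cells, at 200.3 CPM (196.8 to 204.0) and 235 CPM (231 to 239). It was highest in stellate-like cells (369 and 414 CPM), clear of the next class only in the library labelled AEG-1fl/fl, and lowest in T and NK cells (126 and 118 CPM). Hepatocyte RNA, at the share its markers give, accounts for 107 and 94.4 CPM of Ifitm3 in T and NK cells. In B cells it accounts for 128 of 167 CPM and 133 of 141 CPM. Stellate-like cells exceeded hepatocyte-like cells by 1.84-fold and 1.76-fold for Ifitm3, against 15.8-fold and 13.6-fold for Ifit3. Whether the probes tell the Gbp genes apart, or the Ifitm genes, could not be checked.

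Over the 18 profiles (9 classes in 2 libraries), the genes most like each of the 9 were named by Pearson's correlation of log2(CPM + 5) among 11475 genes. The profiles share libraries and free RNA, and the correlations are descriptions. Irf8 was most like Cd83, H2-Aa and H2-Eb1 (r of 0.94, 0.94 and 0.94), genes of antigen-presenting cells. Irf7 was most like Arrb2, Aif1 and Ctsc (0.91, 0.91 and 0.91), Irf1 like Tln1, Cbfb and Khdrbs1 (0.93, 0.92 and 0.92), and Stat2 like Htra2, Uvrag and Ssu72 (0.91, 0.90 and 0.88). Of the induced genes, Ifit3 was most like the interferon targets Rtp4 (0.88) and Ifit3b (0.83) and then Clec4f (0.79). Isg15 was most like Timp2 (0.84), Rtp4 (0.82) and Klhl9 (0.80), and Gbp2 like the target Xaf1 (0.87), Tbc1d2b (0.86) and Ier3ip1 (0.86). Ifit1 was most like Rbsn, Zyx and Chst11 (0.84, 0.83 and 0.78) and Ifitm3 like Dusp1, Scarb2 and Kank2 (0.88, 0.84 and 0.84). Between the 9 genes themselves the closest pairs were Stat2 with Irf8 (0.83), Isg15 with Ifit3 (0.79) and Irf1 with Gbp2 (0.73).

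Detection of pairs of the genes in the same cells was compared for Isg15 with Ifit3 and for Ifit3 with Irf7. In stellate-like cells thinned to 2000 counts, Isg15 was detected in 40.0% of 25 cells with Ifit3 (exact binomial interval 21.1 to 61.3) and in 15.1% of 139 cells without it (9.60 to 22.2) in the library labelled AEG-1DMAC. In the library labelled AEG-1fl/fl the shares were 26.5% of 34 cells (12.9 to 44.4) and 11.9% of 210 cells (7.85 to 17.1). Each share was higher beside Ifit3, with intervals that overlapped. In macrophage-like cells of the library labelled AEG-1fl/fl, Ifit3 was detected in 16.0% of 262 cells with Irf7 (11.8 to 21.0) and in 8.05% of 348 cells without it (5.41 to 11.4), intervals that did not overlap. In the library labelled AEG-1DMAC these shares were 8.55% of 117 cells and 5.92% of 152 cells. How often other pairs of genes differ in this way is not given here. The parts of hepatocyte RNA and of the mix of macrophages in these shares were not tested.

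A few cells carried large shares of an induced gene. One hepatocyte-like cell of the library labelled AEG-1fl/fl, with 27517 counts in all, held 78 counts of Isg15, 70 of Ifit3, 24 of Ifit1, 25 of Gbp2 and 23 of Cxcl10. It alone gave 21.9% of the Ifit3 counts and 28.9% of the Ifit1 counts of the 962 hepatocyte-like cells of its library. One macrophage-like cell of the same library, with 65467 counts, held 242 counts of Gbp2, 559 of Cxcl9, 95 of Irf8 and 42 of Irf1 and 1 of Ifit3. It gave 33.5% of the Gbp2 counts of 716 cells, and its T and NK cell score of 0.39 was also above the gate of 0.3. Of Isg15 and Ifit3 the first cell held 78 and 70 counts among 27517, and the second 17 and 1 counts among 65467. These counts are not scaled to depth.

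The design compares livers labelled as lacking AEG-1 in myeloid cells with their floxed control, although Mtdh itself was higher in macrophage-like cells of the library with the knockout label. In macrophage-like cells 8 of the 9 genes had a ratio below 0, where 62.3% of all genes did, and 1 had a ratio above 0. Irf8 was at 135 CPM (583 counts) against 219 CPM (1627 counts), a log2 ratio of -0.70 (-0.84 to -0.57). Gbp2 was at 65.4 against 97.3 CPM (-0.57, -0.78 to -0.37), and without the 1 cell of each library with the most Gbp2 the ratio was -0.33. Ifit1 had the lowest ratio, -0.91 (-1.67 to -0.21), on 22 and 71 counts. Irf1 (-0.30), Irf7 (-0.31), Isg15 (-0.35), Ifit3 (-0.29) and Stat2 (-0.20) lay close together. Ifitm3 was higher, at 299 against 257 CPM (0.21, 0.11 to 0.32). None of the 9 genes passed 2-fold, a size that 5.27% of the 10800 genes with at least 50 counts reached. Past 1.5-fold were 2 of 9, Irf8 and Ifit1, where the share of all genes was 19.9%. The median of all genes in these cells was -0.12.

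The macrophage values changed when an estimated hepatocyte profile was subtracted. When the hepatocyte profile of the same library was subtracted at the share its markers give, 6 of the 8 lower genes turned to the other side of 0, namely Stat2 (0.15), Irf1 (0.16), Irf7 (0.26), Isg15 (0.13), Ifit3 (0.27) and Gbp2 (0.03). Irf8 (-0.09) and Ifit1 (-0.44) stayed below 0 and Ifitm3 rose to 0.73. The median of all genes in these cells went from -0.12 to 0.04. The share of all genes that changed side is not given here. The profile accounts for 4.0 and 2.31 CPM of Irf8 in macrophage-like cells, for 28.9 and 16.3 CPM of Stat2 and for 121 and 90.6 CPM of Ifitm3, and the remaining counts are divided by a smaller total. Gbp2 also changed side in the stricter gate (0.23), where cells at the gate of a second class are left out. When each cell was assigned to its most likely class profile instead, Gbp2 was at 0.43, Irf8 at -0.28 and Irf7 at -0.05. The part of hepatocyte RNA in these ratios was not tested.

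**Figure D2:**
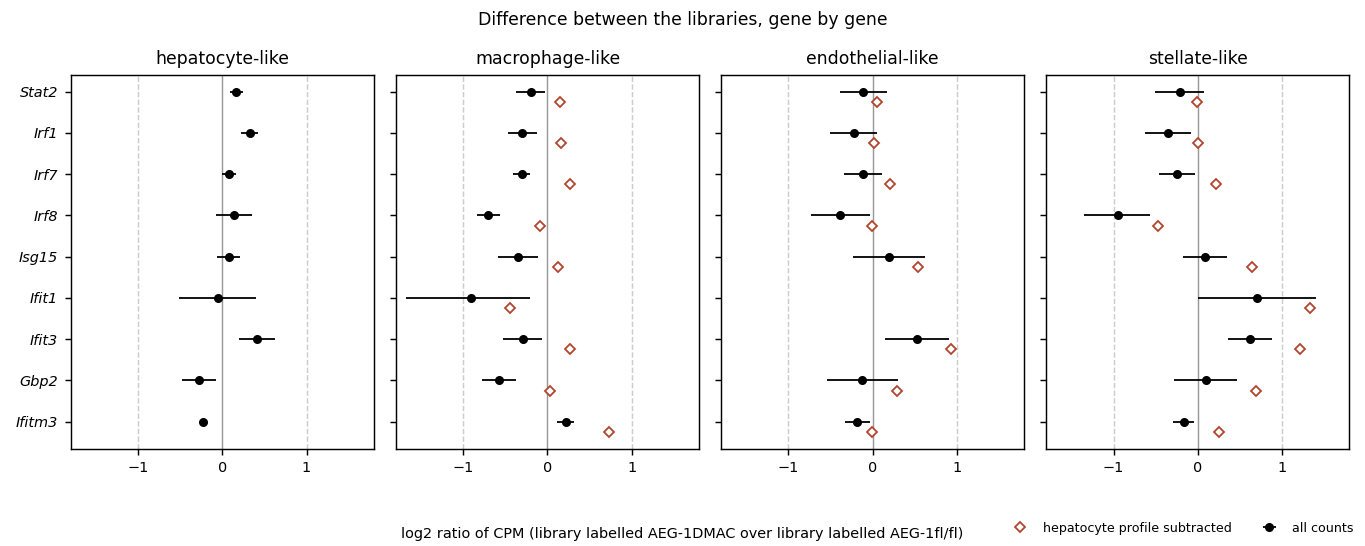
Log2 ratio of CPM between the libraries (labelled AEG-1DMAC over labelled AEG-1fl/fl, x axis) for the 9 genes in the 4 main classes, with exact 95% intervals (black), shown for genes with at least 50 counts in the class, and after subtraction of the hepatocyte profile (open diamonds). Dashed lines mark 2-fold. In macrophage-like cells 8 of 9 black points lie below 0 and 6 of these 8 diamonds above it. The median of all genes in these cells was -0.12, and 0.04 after the subtraction. Ifit3 in endothelial-like and stellate-like cells lies above 0 both ways.

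The mix of macrophages also differed. Cells with a high score over Gpnmb, Trem2, Mmp12, Itgax, Cd9 and Ccr2 made up 15.2% of macrophage-like cells in the library labelled AEG-1DMAC (47 of 309) and 46.5% in the library labelled AEG-1fl/fl (333 of 716), with 33 and 120 cells within 0.05 of the cut. Even within the Gpnmb-high cells Gpnmb itself was lower in the library labelled AEG-1DMAC (1358 against 2846 CPM). Irf8 was higher in the Gpnmb-high than in the other macrophage-like cells of both libraries, by 2.34-fold (259 against 111 CPM) and 1.75-fold (271 against 155 CPM). Without the macrophage-like cell with the most Irf8 in each library these folds were 1.83 and 1.62. Gbp2 was 2.79-fold and 1.41-fold higher in Gpnmb-high cells, but these held the cells with 61 and 242 of its counts, and without them the folds were 1.15 and 0.678, so that the direction turned in the library labelled AEG-1fl/fl. Isg15 was 1.5-fold and 1.32-fold higher, and 0.973-fold and 1.54-fold without its top cells. Within Gpnmb-high cells the ratio between libraries was -0.07 (-0.30 to 0.16) for Irf8, or -0.31 (-0.58 to -0.05) without the top cells, and -0.05 (-0.26 to 0.16) for Irf7, and within the other cells Irf8 differed by -0.49 (-0.68 to -0.30) and Irf7 by -0.41 (-0.53 to -0.28). Gbp2 was 0.34 (0.01 to 0.65) in the Gpnmb-high cells, or 0.11 (-0.43 to 0.61) without the top cells, and -0.64 (-0.92 to -0.37) in the others. Ifit3 was 0.40 (-0.03 to 0.81) in the Gpnmb-high cells and -0.48 (-0.78 to -0.19) in the others. Irf1 was lower in the Gpnmb-high cells (-0.46, -0.86 to -0.08) and in the others (-0.23, or -0.05 without the top cells). Isg15 was -0.04 in the Gpnmb-high cells and -0.22 in the others, or -0.66 (-1.30 to -0.08) and 0.001 without the top cells. In the same order Stat2 was 0.18 and -0.25, Ifitm3 0.26 and 0.07, and Ifit1 -1.04 and -0.48. Whether the libraries differ more in one kind of cell than in the other was not tested.

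**Figure D3:**
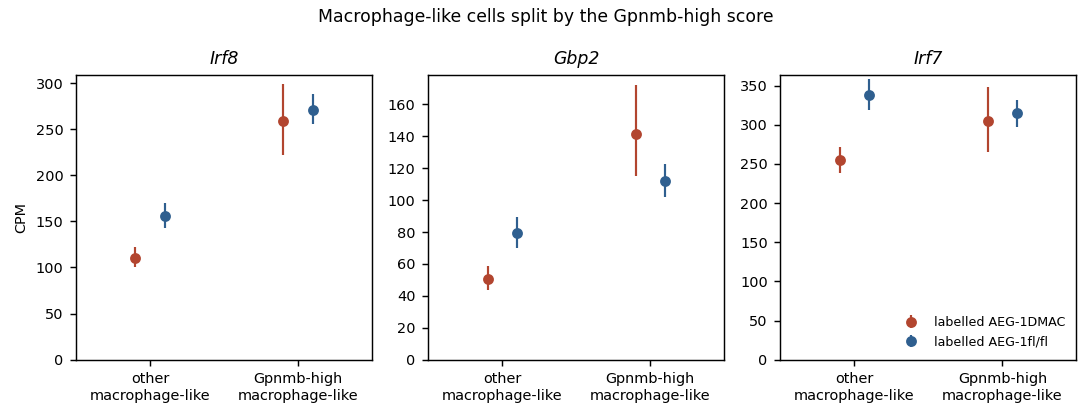
Level (CPM, linear axis from 0) of Irf8, Gbp2 and Irf7 in macrophage-like cells below and above the cut of the Gpnmb-high score, in the library labelled AEG-1DMAC (red) and the library labelled AEG-1fl/fl (blue), with Poisson 95% intervals. Irf8 is higher in Gpnmb-high cells of both libraries (259 and 271 CPM against 111 and 155 CPM), and Gbp2 in Gpnmb-high cells includes single cells with 61 and 242 counts.

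In stellate-like cells Irf8 had the lowest ratio and Ifit1 and Ifit3 the highest. Irf8 was at 36.2 CPM (74 counts) against 70.1 CPM (246 counts), a log2 ratio of -0.95 (-1.35 to -0.57), and it stayed below 0 with the hepatocyte profile subtracted (-0.47). The macrophage gene Lyz2 was counted at 195 and 185 CPM in stellate-like cells, and 21 and 36 of these cells also reached the gate of a second class. The part of RNA from macrophages in the stellate ratios was not tested. Irf1 (-0.35) and Irf7 (-0.25) were lower by intervals short of 0 and turned under the subtraction (0.01 and 0.22). Ifit3 was higher, at 115 against 74.3 CPM (0.62, 0.36 to 0.88), and Ifit1 too, at 17.6 against 10.8 CPM (0.70, 0.01 to 1.40), and both stayed above 0 in all 9 alternative settings. Without the cell holding the most Ifit1 in each library its interval held 0 (0.56, -0.19 to 1.31). Ifitm3 was lower, at 369 against 414 CPM (-0.17, -0.30 to -0.04), where the median of all genes was also -0.17. Stat2 (-0.21), Isg15 (0.09) and Gbp2 (0.10) had intervals that held 0. Of the 9 genes 0 passed 2-fold, against 4.95% of 10169 genes, and 3 passed 1.5-fold (Irf8, Ifit1 and Ifit3), against 19.6%. Without the cell holding the most Irf8 in each library the ratio of Irf8 was -1.03, past 2-fold.

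In endothelial-like cells the median of all genes was -0.15. Ifit3 was at 56.1 against 39.0 CPM (0.52, 0.14 to 0.91) and Irf8 at 46.2 against 60.2 CPM (-0.38, -0.74 to -0.03). Ifitm3 was at 256 against 290 CPM (-0.18, -0.33 to -0.03), and without the top cell of each library its interval held 0 (-0.30 to 0.02). The other genes with at least 50 counts had intervals that held 0, and Ifit1 had 32 counts in all. Of 8 genes 0 passed 2-fold (2.69% of 9854 genes) and 0 passed 1.5-fold (15.2%). With the hepatocyte profile subtracted, Ifit3 was at 0.93, and Irf8 and Ifitm3 were at -0.01 and -0.002.

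In hepatocyte-like cells, the deepest class, small ratios lay outside counting error. Irf1 was at 30.6 against 24.4 CPM (0.32, 0.22 to 0.42) and Stat2 at 47.7 against 42.4 CPM (0.17, 0.09 to 0.25), with Irf9 at 0.30. Ifitm3 was lower, at 200.3 against 235 CPM (-0.23, -0.27 to -0.20). Ifit3 was at 7.26 against 5.47 CPM (0.41, 0.20 to 0.62). Without the 1 highest cell of each library Ifit3 was at 0.69, and in thinned cells at -0.95 on 13 and 21 counts, 9 of them in 1 cell. Gbp2 (-0.28) came to -0.01 without its highest cells. The macrophage gene Lyz2 was counted at 53.3 against 28.6 CPM in these hepatocyte-like cells (0.90, 0.81 to 0.98), and the part of RNA from macrophages in the ratios was not tested. Of the 9 genes 0 passed 2-fold (3.22% of 11993 genes) and 0 passed 1.5-fold (9.98%).

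The smaller classes gave few counts. In cholangiocyte-like cells (29 and 101 cells) 2 of 6 genes with at least 50 counts passed 2-fold, against 8.04% of 8708 genes, and both were higher in the library labelled AEG-1DMAC. Isg15 was at 92.8 against 24.1 CPM (1.95, 1.34 to 2.55), but 1 cell held 22 of its 42 counts in that library, and the ratio was 1.29 (0.47 to 2.06) without the top cell of each library. Gbp2 was at 39.8 against 15.2 CPM (1.39, 0.48 to 2.24), on 18 and 36 counts. Leaving out the tenth of cells with the most counts brought Gbp2 to 0.10 and Isg15 to 1.41, and assignment to the most likely profile brought them to 0.18 and 0.90. In T and NK cells (38 and 91 cells) 1 of 4 genes passed 2-fold, against 4.70% of 2936 genes. This was Irf8, with 2 counts against 57 (-3.55, -6.63 to -1.63). The 57 counts lay in 19 cells, of which 1 held 21 and had a dendritic cell score of 0.41, and in the stricter gate the ratio was -2.91. In dendritic cell-like cells (22 and 46 cells) Irf8 differed by -0.67 (-0.96 to -0.39).

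The other genes of the pathway, 123 on a list of which 117 were in the files (Ifna1, Mx1, Mx2, Gbp10, Gbp11 and Cxcl11 were not), gave the setting of these values. Of 7 interferon genes with probes, Ifnb1, Ifna4, Ifnl2 and Ifnl3 had a count in no cell of either library, which allows a share of cells with a count of up to 0.117% and 0.0855% and sets no limit on cells expressing them. Ifng had 16 counts in 10 cells and 22 counts in 16 cells, of which 4 and 14 counts were in T and NK cells. In macrophage-like cells 91 of 106 genes with at least 50 counts were below 0, where 62.3% of all genes were. Their median was -0.36, against -0.12 for all genes. Past 2-fold 0 of the 106 were higher and 2 lower, where 2.12% and 3.15% of all genes were. With the hepatocyte profile subtracted the median of the list went to 0.16, against 0.04 for all genes. With the most likely profile it went to -0.06, against -0.04. It stayed further below all genes with the stricter cell filter (-0.38 against -0.13) and in the stricter gate (-0.29 against -0.11). With CPM over genes that are not hepatocyte genes the medians were -0.13 against 0.11, and with the mean over cells -0.18 against -0.06. In thinned cells they were -0.17 against -0.08, and without the tenth of cells with the most counts -0.32 against -0.10. The 2 genes lower past 2-fold were Cxcl9, an interferon gamma-induced chemokine (48.5 against 118 CPM, -1.28), and Ciita, the master regulator of MHC class II genes (106 against 214 CPM, -1.01). The DNA sensor Tlr9 (-0.97) followed. The macrophage-like cell described above held 559 of the 876 Cxcl9 counts of its library, and without the top cell of each library Cxcl9 was at 35.0 against 43.1 CPM (-0.30), short of 2-fold, while Ciita was at -1.07 and Tlr9 at -1.02. The 3 highest were Socs3 (0.50), Ifi27 (0.37) and Gbp4 (0.35). All 12 sensors lay below 0 in these cells, as did 42 of 50 targets of type I interferon and 21 of 24 targets of interferon gamma.

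**Figure D4:**
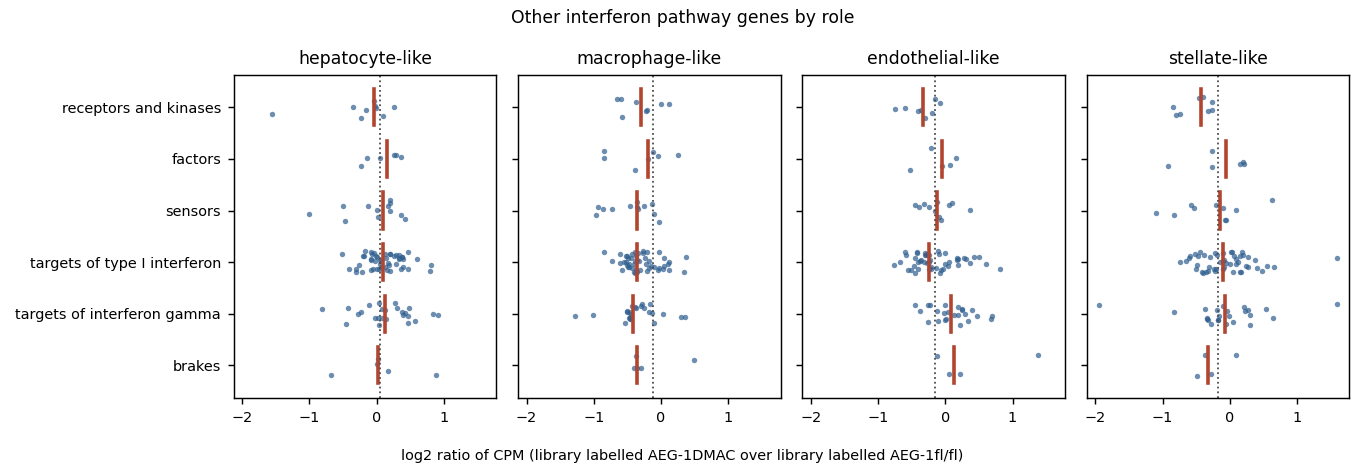
Log2 ratio of CPM between the libraries (labelled AEG-1DMAC over labelled AEG-1fl/fl, x axis) for other interferon pathway genes with at least 50 counts, by role, in the 4 main classes. Each point is a gene (vertical spread is for display), red bars are medians of a role and the dotted line is the median of all genes. In macrophage-like cells the medians of all 6 roles lie below that of all genes (-0.12), and in stellate-like cells Cxcl10 and Rsad2 are highest at 1.60 and 1.59, with 30 of the 83 Cxcl10 counts of the library labelled AEG-1DMAC in 1 cell.

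In stellate-like cells 2 of 102 genes of the list were higher and 2 lower past 2-fold, where 0.80% and 4.15% of all genes were. The median of the list was -0.15, against -0.17 for all genes. Cxcl10, a chemokine that interferons induce, was at 40.7 against 13.4 CPM (1.60) and Rsad2, the antiviral enzyme viperin, at 42.1 against 14.0 CPM (1.59), followed by Cmpk2 (0.65), the neighbour of Rsad2. One cell held 30 of the 83 Cxcl10 counts in the library labelled AEG-1DMAC, which had 26.2 CPM without it, and without the top cell of each library the ratios were 1.37 for Cxcl10 and 1.5 for Rsad2. Ciita (12.2 against 47.3 CPM, -1.95), the RNA sensor Tlr7 (-1.09) and Irf5 (-0.93) were lowest, and the part of RNA from macrophages in these values was not tested. In endothelial-like cells 1 of 100 genes was higher past 2-fold and 0 lower, against 1.14% and 1.55% of all genes. The median was -0.11 against -0.15. The higher gene was Socs3, a brake on cytokine signalling, at 35.9 against 13.8 CPM (1.38), followed by Oas3 (0.81) and Gbp8 (0.69). Usp18 (-0.76), Ifnar1 (-0.75) and Oasl1 (-0.67) were lowest. In hepatocyte-like cells 0 of 107 genes were higher and 1 was lower past 2-fold, against 1.43% and 1.78% of all genes. The median was 0.07 against 0.05. Ifnlr1, a subunit of the lambda interferon receptor, was the lower gene, on 16 and 46 counts (-1.56), followed by Tlr9 (-0.998) and Ciita (-0.81), and Gbp4 (0.92), Socs3 (0.88) and Cxcl10 (0.83) were highest.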

How the data were processed

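For both liver libraries the authors deposited unnormalized counts of probe-ligated RNA, which Cell Ranger 7.1.0 produced per the labels against mm10. Cells needed 100 or more genes and no more than 10% mitochondrial counts, the filter of the study. A cell joined the class with its highest marker score, if at least 0.3, a score being the mean over markers of log2(1 + counts per 10000) scaled to the 99th percentile. Hepatocyte-like cells needed a score of 0.45, other scores below 0.2 and 5000 counts. Ungated cells (500 and 793) were left out. Counts summed per class and library gave CPM with exact Poisson 95% intervals, and log2 ratios have Clopper-Pearson intervals. With 1 library per genotype there was no test. A gene was called past a fold of 2 or 1.5 with 50 or more counts over both libraries. The genes, lists and markers were chosen with earlier results of these data known. The text names the 9 genes, Irf9, Mtdh, Lyz2, the 3 highest and 3 lowest pathway ratios per main class and the 3 most alike genes, and the single cells were chosen after their values were seen. One further gene is not reported here. Alternatives were other cell filters, gates, scalings, seeded thinning to 2000 counts and omitted cells. Scripts were tested on simulated data and used Python 3.11.15, NumPy 2.4.6, SciPy 1.17.1, pandas 2.3.3 and matplotlib 3.10.9. Gene positions are from GENCODE on mm10 and start-site windows from RefSeq. The Ifit1 window is printed without its last 18 bases, which lie in the GENCODE gene.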

Additional observations from a re-analysis of the deposited data

Results flagged for a closer look

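Between cell classes, 5 of the genes had library differences of opposite sign, each with an interval on its own side of 0, and the difference between the classes was not tested, since each genotype has 1 library. Of 11045 genes with at least 50 counts in 2 or more of the main classes, 17.9% had such opposite signs. Ifit1 was 0.70 in stellate-like and -0.91 in macrophage-like cells, a gap of 1.62 on the log2 scale (the stellate interval was -0.19 to 1.31 without the top cell of each library), and Ifit3 was 0.62 and -0.29 in the same classes, a gap of 0.92. Irf1 was 0.32 in hepatocyte-like and -0.35 in stellate-like cells (gap 0.68). Ifitm3 was 0.21 in macrophage-like and -0.23 in hepatocyte-like cells (gap 0.45), and Stat2 was 0.17 in hepatocyte-like and -0.20 in macrophage-like cells (gap 0.37). With the hepatocyte profile subtracted, macrophage Ifit3 (0.27), macrophage Stat2 (0.15) and stellate Irf1 changed side, whereas Ifit1 and Ifitm3 in the classes named here did not. The medians of all genes were 0.05 in hepatocyte-like, -0.12 in macrophage-like and -0.17 in stellate-like cells.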

How the results depend on the processing

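No paired analysis was possible because each genotype has 1 library. Of 35 ratios of the 9 genes in the 4 main classes, 23 had an interval that left out 0, and 12 of these kept their sign in every alternative. The share of all genes with such an interval is not given here. Over all alternatives, 231 of 306 values stayed within the interval of the reported ratio, 55 lay outside it, and 20 changed side of 0 where that interval left out 0. With the hepatocyte profile subtracted, which divides by a smaller remaining total, Stat2 (0.15), Irf1 (0.16), Irf7 (0.26), Isg15 (0.13), Ifit3 (0.27) and Gbp2 (0.025) changed side in macrophage-like cells and Irf1 (0.0055), Irf7 (0.22) and Ifitm3 (0.26) in stellate-like cells. With CPM over genes that are not hepatocyte genes, which raised the median of all genes in macrophage-like cells from -0.12 to 0.11, macrophage Stat2 (0.025) and stellate Ifitm3 (0.034) changed side. With the most likely profile macrophage Stat2 (0.0039) and Gbp2 (0.43) did, in the stricter gate macrophage Gbp2 (0.23), and with the mean over cells hepatocyte Gbp2 (0.12). In thinned cells hepatocyte Ifit3 (-0.95) and Gbp2 (0.18), macrophage Irf1 (0.29) and Gbp2 (0.016) and stellate Irf1 (0.17) did. The subtraction brought the median of all genes to 0.04 in macrophage-like and -0.01 in stellate-like cells. The cause of the changes of side was not tested. Of the 9 genes, 0 passed 2-fold in each main class, but 2 did in stellate-like cells after the subtraction, 1 in stellate-like cells without the cell holding the most counts of the gene (an alternative chosen after seeing the data) and 1 in thinned macrophage-like cells, and at 1.5-fold 2 did in macrophage-like and 3 in stellate-like cells. The pathway counts past 2-fold (1 hepatocyte, 2 macrophage, 1 endothelial, 4 stellate) became 2 in hepatocyte-like cells with the stricter cell filter and 3 (Ifnlr1, Tlr9 and Rsad2) without the cell holding the most counts of the gene. They became 1 macrophage and 2 stellate in the stricter gate, and 2 hepatocyte, 0 macrophage and 3 endothelial with the most likely profile. The mean over cells gave 5 hepatocyte, 1 macrophage and 4 endothelial, and CPM without hepatocyte genes 2 hepatocyte and 1 macrophage. The subtraction gave 1 macrophage, 3 endothelial and 12 stellate, and thinning 0 hepatocyte, 0 endothelial and 0 stellate. Without the tenth of cells with the most counts there were 0 hepatocyte and 4 macrophage, without a minimum count 3 hepatocyte, 4 macrophage and 3 endothelial, and at 1.5-fold 10 hepatocyte, 14 macrophage, 10 endothelial and 17 stellate. The class with the highest level was the same for 10 of 18 genes and libraries with the most likely profile and for 13 to 17 in the other alternatives. Depth limits Ifit1 most, with 17 and 15 counts in endothelial-like and 22 and 71 in macrophage-like cells.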

Other observations

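Hepatocyte-like cells were ranked by their score over the pericentral genes Cyp2e1, Cyp1a2 and Oat less that over the periportal genes Pck1, Hal, Gls2, Cyp2f2, Hsd17b13 and Arg1, and the 384 and 321 cells at each end were compared. Ifitm3 was lower at the pericentral end in both libraries, at 179 against 232 CPM (labelled AEG-1DMAC) and 197 against 278 CPM (labelled AEG-1fl/fl). Irf7 (log2 ratios of -0.22 and -0.43) and Stat2 (-0.17 and -0.22) were lower there too. Irf1 was higher at the pericentral end (0.24 and 0.20), and so was Gbp2, by 0.55 (133 against 112 counts) and 1.43 (185 against 86 counts). In the library labelled AEG-1fl/fl 4 hepatocyte-like cells held 37.9% of the Gbp2 counts, 1 of them with 86 counts. A Gbp2 ratio between the ends without these cells is not given here. Ifit3 was higher there in the library labelled AEG-1DMAC, at 9.35 against 4.14 CPM, and level in the library labelled AEG-1fl/fl, at 3.74 and 3.64 CPM. The cells between the ends did not always lie between them in level. Irf1 was at 34.8 and 26.1 CPM in these cells and Stat2 at 58.6 and 46.6 CPM, above both ends. Ifitm3 lay between the ends (181 and 219 CPM). Ifit3 was at 9.16 and 9.82 CPM, and 1 hepatocyte-like cell of the library labelled AEG-1fl/fl held 70 of its counts. The Kupffer cell marker Clec4f was at 53.1 and 52.1 CPM at the pericentral and periportal ends of the library labelled AEG-1DMAC and 87.2 CPM between them. In the other library it was at 29.6 and 24.9 CPM at the ends and 41.3 CPM between them. Its part in these values was not tested.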
